A study of Homo sapiens with 42 samples.

Results

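Poly-A RNA-seq of 786-O cells that stably express HIF-1α was compared with that of cells expressing HIF-1α R30E, a form with a mutated DNA-binding domain. The comparison rests on 6 of the 42 RNA-seq libraries of the series, the 3 HIF-1α and the 3 R30E libraries of the first batch, each taken by its label. 786-O is a clear cell renal cell carcinoma line without functional VHL, so that endogenous HIF-2α is stable, and it lacks functional HIF-1α. Both transgenes carried an N-terminal V5-HaloTag, were driven by the L30 promoter and were integrated with the PiggyBac transposase under puromycin selection. Unmodified WT cells, the dimerization mutant HIF-1αDM, and HIF-2α with its own DNA-binding mutant R27E were sequenced in the same batch. Knock-in clones of HIF-1β and HIF-2α and the dimerization mutant of HIF-2α were in that batch too, and their libraries shared its model fit. HIF-1α and WT cells were sequenced again in a second batch with another RNA extraction and library kit.

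Each construct was represented by 1 stable line, so the mutation and other differences between the lines cannot be told apart. The study describes the 3 libraries of each line as biological replicates. What separated them beyond that is not given in the sources used here, so p-values measure the spread between these libraries. In bulk RNA, fewer cells expressing a gene and less RNA per cell cannot be told apart.

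HIF-1α and HIF-2α are basic helix-loop-helix PAS proteins that pair with HIF-1β, the product of ARNT, and bind hypoxia response elements whose core reads ACGTG or GCGTG. In oxygenated cells prolyl hydroxylases mark the α subunits for recognition by VHL and degradation, and a cell without VHL keeps them. The genes bound by these dimers include enzymes of glycolysis, regulators of mitochondria, angiogenic ligands and the prolyl hydroxylase EGLN3 itself.

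The residue that R30E replaces lies in the basic region of HIF-1α, which contacts DNA, and R27E replaces the matching residue of HIF-2α. Both codons are shown because the comparison turns on them. The reference coding sequence of exon 2 was taken from hg38 with the replaced codon in capitals, at chr14:61720404-61720466 for HIF1A and at chr2:46346895-46346957 for EPAS1, both on the plus strand. The codon used in the transgenes is not given in the sources used here.
HIF1A, codon 30: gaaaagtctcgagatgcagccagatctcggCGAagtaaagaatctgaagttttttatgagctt
EPAS1, codon 27: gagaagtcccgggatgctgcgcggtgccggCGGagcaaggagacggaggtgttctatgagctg
Both codons encode arginine in the reference.

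The transgene transcripts were at similar levels in both lines. Reads of the transgene count on HIF1A, together with reads of the endogenous gene and of antisense genes that overlap it, since counting ignored strand. HIF1A had 2786, 3082 and 3245 normalized counts in the HIF-1α libraries and 2366, 2803 and 2367 in the R30E libraries. A normalized count is the read count of a library scaled by its size and TMM factor to the mean library of the batch. The groups overlapped, and the log2 difference of 0.27 ± 0.23 (SE, n = 3 per group) was not called (edgeR adjusted p = 0.690). In WT cells HIF1A had 231 to 257 normalized counts, and both lines were above them, by 3.65 for HIF-1α and by 3.37 for R30E on the log2 scale. Protein was not measured in these files.

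EPAS1, which encodes the endogenous HIF-2α, did differ. It had 20940, 25910 and 22000 normalized counts with HIF-1α and 8033, 10400 and 12530 with R30E, with no overlap. The log2 difference was 1.15 ± 0.20 (edgeR adjusted p = 4.61e-04). WT cells had 12560 to 16600, between both lines, and neither line was called against WT cells (log2 0.66 for HIF-1α and -0.49 for R30E). ARNT was at 1215 to 1927 normalized counts with HIF-1α and at 827 to 1471 with R30E. Its groups overlapped and its difference of 0.47 ± 0.24 was not called (edgeR adjusted p = 0.393).

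**Figure D1:**
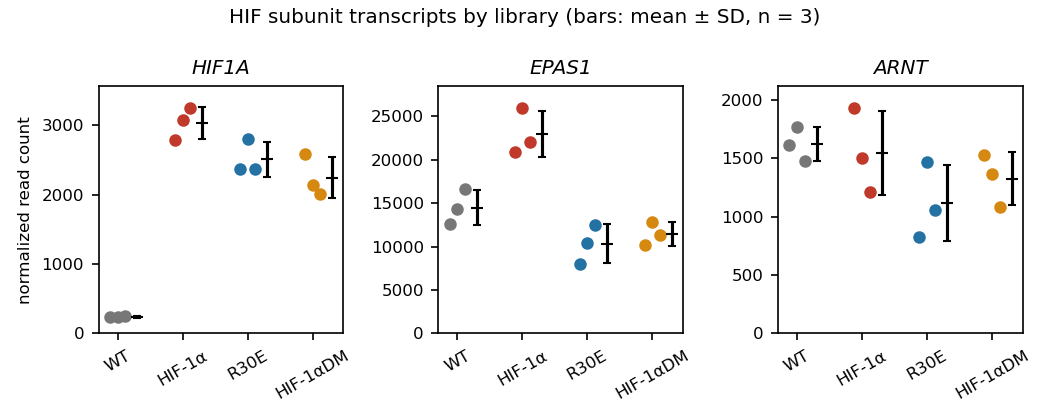
Normalized read counts of HIF1A, EPAS1 and ARNT in each library of WT, HIF-1α, R30E and HIF-1αDM cells of the first batch (y axis from 0, points: libraries, bars: mean ± SD, n = 3). HIF1A sat at 2366 to 3245 in the HIF-1α and R30E libraries, while EPAS1 was at 20940 or more in every HIF-1α library and at 12530 or less in every R30E library.

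HIF-1α and R30E libraries held 46864256 to 81013481 counted reads, which does not separate the groups. A count of 3 reads, taken as the floor, corresponded to 2.56 to 4.17 normalized counts. Of the markers listed for the 786-O line, PAX8, PAX2, VIM, KRT8, KRT18 and CDH2 had at least 687 reads in each of the 6 libraries. CA9, on the same list, ranged from 1 to 4527 reads and is described below. Of the markers of other cell types, the endothelial CDH5 and EMCN, the leukocyte CD3E, the erythroid HBA1 and HBA2 and the fibroblast DCN had 0 reads in all of them, and PECAM1, VWF, TEK, PTPRC, HBB and PDGFRA had at most 6 reads in any. Other markers were present in every library, with 608 to 2494 reads of COL1A1, 90 to 295 of PDGFRB and 10 to 32 of LUM (fibroblast), and 11 to 44 of CD14 and 5 to 16 of ITGAM (leukocyte). COL1A1 was at 1516 to 2271 normalized counts with HIF-1α and 646 to 1320 with R30E, a log2 difference of 1.04. PDGFRB and LUM went the other way, at -0.70 and -0.36. None of these fibroblast markers was called, and their part in the results was not tested. By chi-square over genes, replicate libraries of a group differed by more than sampling noise. This does not show that they are independent. Each was counted as 1 replicate, as the study describes them.

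Most called genes were higher with HIF-1α than with R30E. Of 23410 genes tested, 333 were higher and 77 were lower, that is 1.42% and 0.329% of the genes tested. A call required at least a 2-fold difference and an edgeR p, adjusted over all genes tested, no higher than 0.01. The median log2 difference was 2.21 among the genes called higher and -1.40 among those called lower, against 0.02 over all genes tested. Of the 333 higher genes, 180 differed at least 4-fold and 67 at least 16-fold, whereas 21 of the 77 lower genes reached 4-fold and 0 reached 16-fold. In 331 of the higher genes and in all 77 lower genes the 3 HIF-1α libraries did not overlap the 3 R30E libraries. The calls were made on these same libraries, so the lack of overlap largely follows from them and is no separate support. The share without overlap over all genes tested was not computed. At an adjusted p of at most 0.01 with no fold change required, 385 genes were higher and 126 lower. Protein-coding genes made up 297 of the 333 higher genes (89.2%) and 73 of the 77 lower genes (94.8%), against 14906 of all 23410 tested (63.7%). Why the shares differ was not tested. Over genes with a mean of at least 50 normalized counts, the median log2 difference by chromosome ran from -0.13 on chromosome 13 to 0.11 on chromosome 22.

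**Figure D2:**
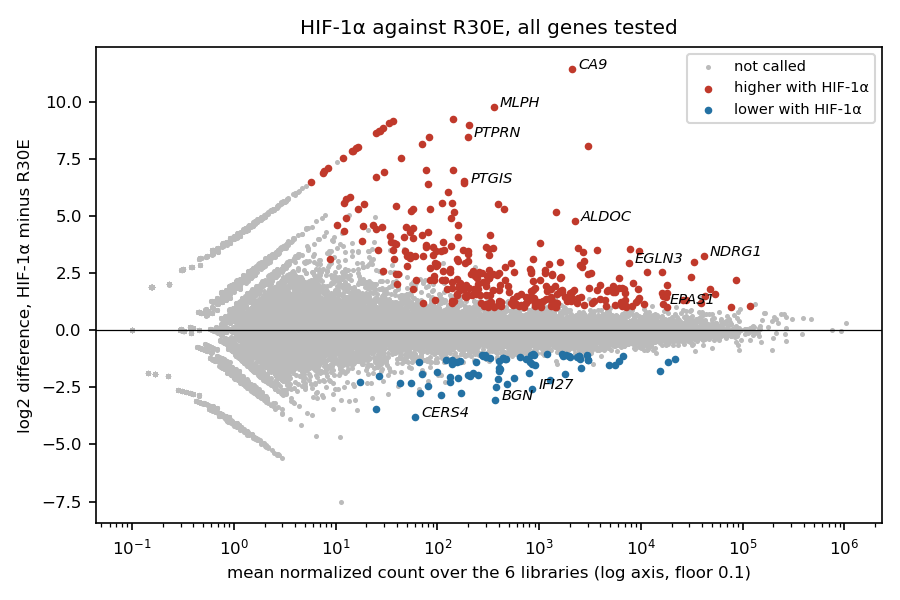
Log2 difference between HIF-1α and R30E (y axis) against the mean normalized count over the 6 libraries (log x axis) for the 23410 genes tested. The 333 genes called higher (red) reach 11.47 for CA9, and the 77 genes called lower (blue) reach -3.79 for CERS4.

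CA9 showed the highest log2 difference among genes that passed the naming rule. It encodes carbonic anhydrase IX, a cell surface enzyme that interconverts carbon dioxide and bicarbonate. CA9 had 4276, 4602 and 3872 normalized counts with HIF-1α, and 1.35, 1.00 and 1.71 with R30E, where only 4 reads were counted in the 3 libraries together. The groups were far apart, and the log2 difference was 11.47 ± 0.61 (edgeR adjusted p = 1.27e-12). WT cells had 0 to 2.90 normalized counts and HIF-1αDM cells 1.00 to 4.88, near the floor. HIF-2α cells had 41.1, 5.91 and 18.1, above R27E cells with at most 0.96 (log2 4.81, edgeR adjusted p = 1.47e-04) and below every HIF-1α library.

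MLPH, which encodes the melanosome transport protein melanophilin, was at 669, 672 and 817 normalized counts with HIF-1α. With R30E it was at 1.35, 0 and 0.85, from 2 reads in all. The ratio of its reads was 1056 with an exact 95% counting interval of 292 to 8723, an interval that covers counting error only. Unlike CA9, MLPH had 25.6 to 41.6 normalized counts in WT cells, and its level with R30E was called lower than there (log2 -5.36, edgeR adjusted p = 3.21e-06).

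Several of the leading genes had at most 2 reads over the 3 R30E libraries. CCDC8, a scaffold component of the cullin-based 3M complex, had 196 to 371 normalized counts with HIF-1α and 1 read with R30E (ratio 826, 95% interval 148 to 32650). POU3F3, a POU-domain transcription factor, had 350 to 459 normalized counts against 2 reads (ratio 597, 165 to 4938). PLA2G4D, a cytosolic phospholipase A2, had 128 to 219 against 1 read (ratio 466, 83.2 to 18440). PRKCZ, an atypical protein kinase C, was at 96.3 to 170 against 1 read (ratio 402, 71.8 to 15930). These 4 genes also had 0.83 to 16.2 normalized counts in WT cells, below every HIF-1α library.

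PTPRN encodes a membrane protein of neuroendocrine secretory granules. It had 473, 397 and 316 normalized counts with HIF-1α, and 0, 0 and 2.56 with R30E. With 3 reads in the R30E line, the ratio of reads was 382 with an interval of 130 to 1855. WT cells were at 0 to 0.97, so that the gene was near 0 in both the WT and the R30E line.

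SLC38A5, an amino acid transporter, had 5235, 6845 and 5782 normalized counts with HIF-1α against 10.8, 22.1 and 30.7 with R30E. The log2 difference of 8.07 ± 0.44 passed the test (edgeR adjusted p = 1.84e-12). WT cells had 225 to 240, and the R30E line was called lower than WT cells (log2 -3.38). MAGEA3, a cancer-testis antigen with near-identical paralogs between which unique reads may be split, was at 260 to 311 against 1.00 to 3.41, and it was also called lower with R30E than in WT cells (-3.62). MYH13, a myosin heavy chain, was at 194 and 225 in 2 HIF-1α libraries and at 38.2 in the third, all above the R30E libraries, which held 3 reads (ratio 138, 46.8 to 671). ARL10 (333 to 385 against at most 4.27) and PTGIS, prostacyclin synthase (269 to 414 against 1.35 to 7.03), complete the 12 genes with the largest positive differences.

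**Figure D3:**
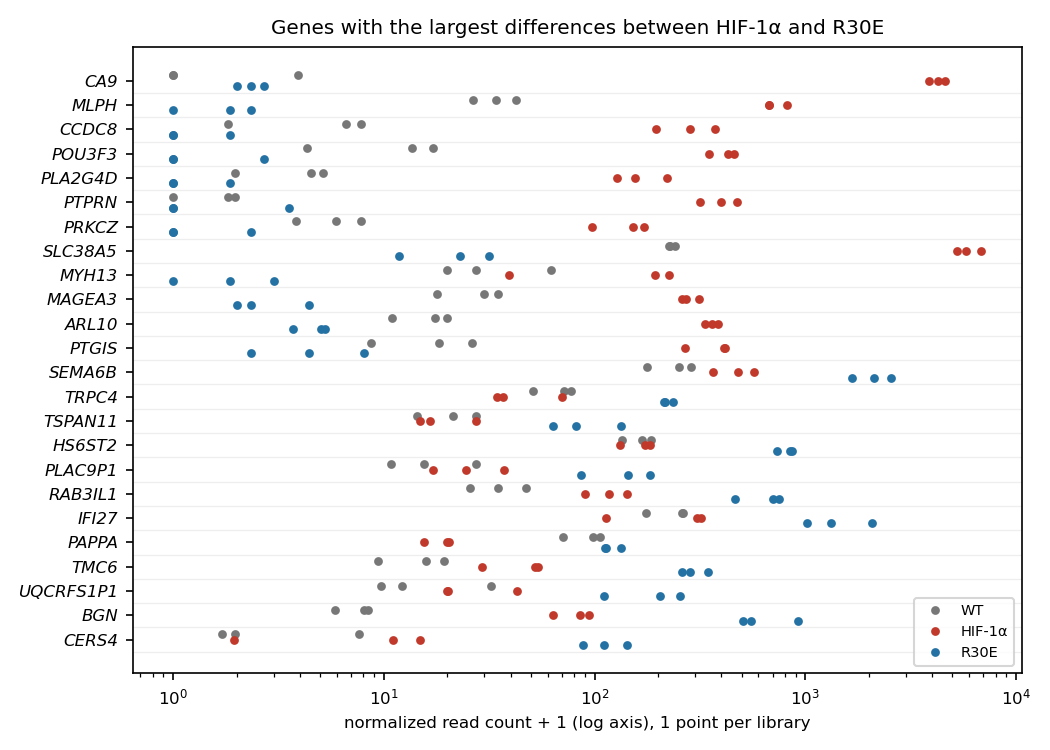
Normalized read count plus 1 (log x axis, 1 point per library) for the 12 genes with the largest positive and the 12 with the largest negative difference, in WT (grey), HIF-1α (red) and R30E (blue) cells. For the upper 12 genes R30E lay at or below WT levels in most libraries, and for 11 of the lower 12 genes R30E was called higher than WT. HIF-1α was called higher than WT for BGN and RAB3IL1, lower for PAPPA, and not called for the other 9.

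Promoter stretches of genes that were called higher are shown for the letters they hold at the hypoxia response element core. ACGTG and its reverse complement CACGT are in capitals, both strands were searched, and CACGTG is a match on both strands. The stretches lie upstream of the RefSeq gene start on GRCh38.p14 and read 5′ to 3′ on the strand of the gene. Their positions are chr9:35673880-35673927 for CA9, chr2:237487213-237487250 for MLPH, chr17:28576896-28576953 for ALDOC, chr12:6914432-6914496 for ENO2, chrX:78104035-78104099 for PGK1, chr11:18394460-18394524 for LDHA, chr10:131982022-131982086 for BNIP3 and chr1:203026343-203026407 for PPFIA4. ALDOC and BNIP3 lie on the minus strand, the others on the plus strand.
CA9: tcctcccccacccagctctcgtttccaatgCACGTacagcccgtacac
MLPH: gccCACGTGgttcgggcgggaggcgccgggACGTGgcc
ALDOC: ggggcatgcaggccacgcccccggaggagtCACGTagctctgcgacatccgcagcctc
ENO2: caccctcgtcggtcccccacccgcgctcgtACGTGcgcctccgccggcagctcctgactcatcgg
PGK1: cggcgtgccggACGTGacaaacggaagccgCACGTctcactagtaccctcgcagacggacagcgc
LDHA: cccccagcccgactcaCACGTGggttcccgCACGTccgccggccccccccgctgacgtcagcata
BNIP3: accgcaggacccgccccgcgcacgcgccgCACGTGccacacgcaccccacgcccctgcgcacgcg
PPFIA4: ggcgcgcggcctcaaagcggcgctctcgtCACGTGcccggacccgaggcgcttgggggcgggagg
These 8 were chosen because a match was present, and a match is a description of the letters, not evidence of binding. Among the called genes with a RefSeq promoter of 300 bases, ACGTG on either strand was present in 65 of 231 higher genes (28.1%) and in 9 of 60 lower genes (15%), against 3257 of 12661 tested genes (25.7%). GCGTG was present in 44.6% of the higher, 40% of the lower and 48.1% of all tested promoters. The share in the higher genes was thus close to that of all tested genes, and distal sites lie outside this window.

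Enzymes of glycolysis, which convert glucose to pyruvate and lactate, were called higher in 6 of 17 members and lower in 0, with a median log2 difference of 0.89. The counts of this and the other lists stand against 1.42% called higher and 0.329% called lower, and a median of 0.02, over all genes tested. ALDOC, an aldolase, stood out among them with 5473, 4868 and 2748 normalized counts against 120, 210 and 134 with R30E. Its groups were well apart (log2 4.81 ± 0.33, edgeR adjusted p = 9.05e-11). ENO2, the neuronal form of enolase, had 23970, 15660 and 13470 against 1348, 1685 and 1654 (log2 3.50 ± 0.23, edgeR adjusted p = 5.75e-11). HK2, the hexokinase that traps glucose in the cell, was higher by 1.84 ± 0.20, with 9046 to 9650 normalized counts against 2322 to 2929.

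PGK1, phosphoglycerate kinase, had 107800, 62460 and 53810 normalized counts with HIF-1α against 20730, 28740 and 14560. Its log2 difference of 1.81 ± 0.38 was called (edgeR adjusted p = 0.00397), but no longer without HIF-1α replicate 1, R30E replicate 1 or R30E replicate 3. LDHA, which makes lactate, was higher by 1.60 ± 0.24 and PFKL, the liver phosphofructokinase, by 1.19 ± 0.23. PFKL lost its call without HIF-1α replicate 3, R30E replicate 1 or R30E replicate 2, and in a fit to the 6 libraries alone. HK1 and GPI were at 0.75 and 0.89 and were not called, since neither difference reached 2-fold. HK1 also missed the threshold of 0.01 (edgeR adjusted p = 0.0109), which GPI met (edgeR adjusted p = 0.00301).

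The kinases that set the flow through glycolysis were called in 3 of 8 members. PFKFB4, which makes the allosteric activator of phosphofructokinase, had 17060, 15210 and 10490 normalized counts with HIF-1α against 875, 1525 and 1215 with R30E (log2 3.56 ± 0.22, edgeR adjusted p = 2.79e-11). PDK1, which shuts off pyruvate dehydrogenase, had 1375, 1627 and 1318 against 236, 268 and 212 (log2 2.59 ± 0.23). Neither gene's groups overlapped. PFKFB3, with the same activity as PFKFB4, was higher by 1.34 ± 0.16. PFKFB2 stayed at 292 to 398 against 270 to 420 and PFKFB1 at 0.91 to 9.45 against 6 reads in all with R30E, both with overlap and not called.

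Of 6 genes of glucose and lactate transport, SLC2A1 and SLC2A3 were called higher. SLC2A1, the glucose transporter GLUT1, had 141800 to 174800 normalized counts with HIF-1α and 63470 to 85160 with R30E, a log2 difference of 1.05 ± 0.16. SLC2A3, whose reads are uncertain because of its paralog SLC2A14, was higher by 1.18 ± 0.25. SLC2A1 lost its call without HIF-1α replicate 2 or R30E replicate 2, and SLC2A3 without HIF-1α replicate 1 or 2 or R30E replicate 1 or 3. Neither was called in the fit to the 6 libraries alone. The lactate exporter SLC16A3 was at 0.78 and SLC16A1 at 0.08, neither of them called.

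Glycogen metabolism had 3 called members of 12. PPP1R3C, which targets protein phosphatase to glycogen, had 666, 535 and 399 normalized counts against 90.4, 121 and 114 (log2 2.30 ± 0.28, edgeR adjusted p = 3.49e-06). The branching enzyme GBE1 was higher by 1.37 ± 0.15 and phosphoglucomutase PGM1 by 1.07 ± 0.23. PGM1 was not called without HIF-1α replicate 1, R30E replicate 1 or R30E replicate 3, nor in the fit to the 6 libraries alone. The other 9 members were not called, and the list's median was 0.50.

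Carbonic anhydrases were called in 2 of 6 tested members, with a list median of 0.29. Beside CA9, CA12 was higher, with 15820, 15810 and 9573 normalized counts against 4117, 6795 and 4723 (log2 1.40 ± 0.24, edgeR adjusted p = 3.80e-04). WT cells had 10000 to 13250 normalized counts of CA12, in the range of the HIF-1α line, and R30E was called lower than WT cells (log2 -1.20). For CA9 R30E was not called against WT cells (log2 0.65, edgeR adjusted p = 0.859), and HIF-1α was called higher than WT cells by 12.12 on the log2 scale.

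Among 10 tested genes of mitochondrial adaptation and mitophagy, 4 were called higher. BNIP3, an outer mitochondrial membrane receptor for mitophagy, had 27620, 27110 and 27900 normalized counts against 6094, 3698 and 4397. The log2 difference was 2.54 ± 0.16 (edgeR adjusted p = 5.75e-11). Its relative BNIP3L had 5076 to 6043 against 896 to 973 (log2 2.53 ± 0.17), and FAM162A, a mitochondrial protein of the hypoxia response, 1921 to 3047 against 454 to 657 (2.28 ± 0.28). NDUFA4L2, a paralog of a cytochrome oxidase subunit, was at 107 to 182 against 30.1 to 71.7 (1.34 ± 0.31). The call of NDUFA4L2 was lost in 8 alternatives, among them those without any 1 of the 3 HIF-1α libraries. Of 28 genes of the respiratory chain and ATP synthase 0 were called, with log2 differences between -1.11 and 0.38 and a median of -0.14.

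The angiogenic and vasoactive ligands had 5 of 12 tested members called higher and 0 lower (1.42% and 0.329% of all genes tested). VEGFA, the main growth factor of blood vessels, had 31360, 29180 and 25970 normalized counts against 7469, 6414 and 7968 (log2 1.99 ± 0.14, edgeR adjusted p = 9.05e-11). ADM, the vasodilator adrenomedullin, was higher by 2.09 ± 0.18, and ANGPTL4, which inhibits lipoprotein lipase, by 1.79 ± 0.24. EDN1, endothelin, and PDGFB, a ligand for pericytes, were higher by 1.20 ± 0.21 and 1.17 ± 0.17. VEGFB was at 0.98 and VEGFC at -0.35, not called, though VEGFB was called without HIF-1α replicate 1 or R30E replicate 3. The list's median was 0.86.

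The list of other hypoxia-response genes had 9 of 16 members called higher and a median of 1.54. All 16 differences were above 0, from 0.41 to 3.84. STC1, the secreted glycoprotein stanniocalcin, had 2332, 1845 and 1543 normalized counts against 78.3, 198 and 122 (log2 3.84 ± 0.29). NDRG1, a cytoplasmic protein of stress and differentiation, had 79880, 95030 and 52100 against 6626, 8493 and 8340 (log2 3.27 ± 0.25, edgeR adjusted p = 8.68e-10). Both genes' groups were separate by a wide margin.

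DDIT4, an inhibitor of mTOR signalling, was at 48320 to 56400 normalized counts with HIF-1α against 8785 to 12740 with R30E (log2 2.33 ± 0.29). ZNF395, a transcription factor, was higher by 2.30 ± 0.20 and MXI1, an antagonist of MYC, by 2.22 ± 0.17. INSIG2, which retains sterol sensors in the endoplasmic reticulum, was higher by 1.73 ± 0.20, STC2 by 1.51 ± 0.24, and the oxidase ERO1A by 1.30 ± 0.16. TMEM45A was higher by 1.09 ± 0.23, a call that was lost in 4 of the 6 fits without 1 library. ANKRD37, at 189 to 255 against 79.4 to 150, and BHLHE40, at 13110 to 17140 against 8030 to 9170, did not overlap between groups but were not called. ANKRD37 was called when a replicate block was added.

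EGLN3 was the 1 of 6 oxygen-sensing hydroxylase genes and VHL that was called. It had 12360, 15680 and 12300 normalized counts with HIF-1α against 1613, 1501 and 2154 with R30E (log2 2.94 ± 0.25, edgeR adjusted p = 9.43e-09). EGLN1 was at 3418 to 5112 against 1745 to 3406, with a difference of 0.66 ± 0.28 that was not called. EGLN2 was at 80.5 to 294 against 64.8 to 312, and its groups overlapped.

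Collagen hydroxylases and lysyl oxidases, which modify collagen before and after secretion, had 3 of 12 members called. LOX, which cross-links collagen and elastin, had 3849, 4706 and 4628 normalized counts against 535, 555 and 713 (log2 2.87 ± 0.21). The prolyl 4-hydroxylase subunit P4HA1 was higher by 1.71 ± 0.18 and the lysyl hydroxylase PLOD2 by 1.04 ± 0.15. P4HA2 was at 1.08 ± 0.31 and not called (edgeR adjusted p = 0.0480), but it was called with no filter on low counts and when the replicate block was added. Among 21 tested matrix proteins, COL6A3, COL5A1 and FBN1 were called higher and BGN lower. COL6A3, a chain of collagen VI, had 60340, 63400 and 54440 against 5673, 8440 and 8092 (log2 3.00 ± 0.20). FBN1, fibrillin, had 1175 to 1358 against 464 to 688 (1.16 ± 0.25) and lost its call in 5 of the 6 fits without 1 library. COL5A1 was higher by 2.20 ± 0.44, a call that did not hold without HIF-1α replicate 3, R30E replicate 1 or R30E replicate 2.

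Of 18 oxygen-dependent chromatin demethylases only KDM3A and KDM4B were called, though 17 of the 18 differences were above 0 (median 0.34). KDM3A, a histone H3 lysine 9 demethylase, had 1911, 2049 and 1792 normalized counts against 757, 857 and 716 (log2 1.30 ± 0.15). KDM4B was higher by 1.32 ± 0.29 and was not called in 4 of the 6 fits without 1 library. Among 10 tested iron and heme genes TFR2, a transferrin receptor, was higher by 3.58 ± 0.50, with 550, 542 and 684 against 43.2, 24.1 and 80.2. The ferroxidase CP was higher by 1.77 ± 0.38, with no overlap between groups, and lost its call in 4 of those 6 fits and in the fit to the 6 libraries alone. PTPRN and CPE, which processes peptide hormones, were the called members of 10 tested neuroendocrine secretory granule genes (CPE log2 1.78 ± 0.39). CPE overlapped between groups, with 231 to 751 against 78.3 to 247 normalized counts, and its call did not hold in 4 of the 6 fits without 1 library or in the fit to the 6 libraries alone.

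Of 10 genes linked to HIF-2α in renal carcinoma, 1 was called. This was EPO, erythropoietin, with 14.2, 48.6 and 11.8 normalized counts against 2 reads with R30E (ratio 31.8, 95% interval 8.46 to 269). It was not called without HIF-1α replicate 2 or R30E replicate 1, nor in the fit to the 6 libraries alone. The ligand TGFA had 15210 to 21980 against 10910 to 11210 and CCND1, cyclin D1, 29410 to 41400 against 15620 to 23160. Neither was called, at 0.68 and 0.85. HSD3B7 and PLXNA2 were at 0.46 and -0.54, also not called.

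**Figure D4:**
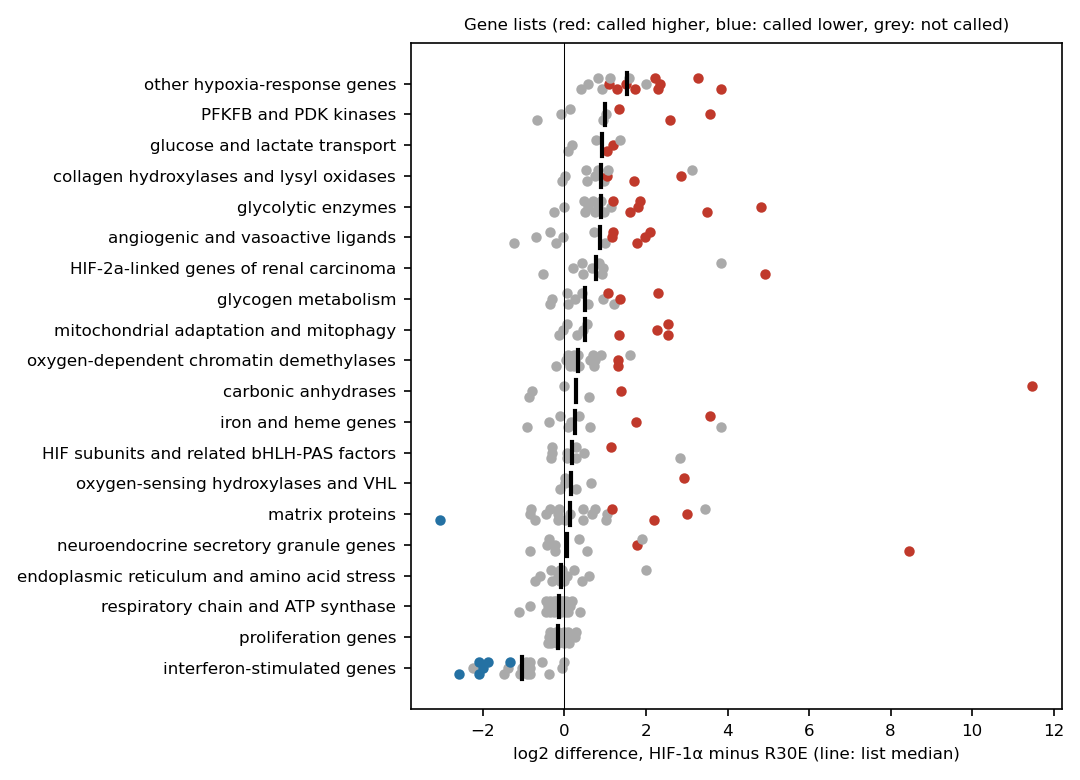
Log2 difference between HIF-1α and R30E (x axis) for each tested member of the 20 gene lists, ordered by the list median (black line), with genes called higher in red, lower in blue and not called in grey. The list of other hypoxia-response genes had a median of 1.54 and interferon-stimulated genes a median of -1.04.

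The genes that were lower with HIF-1α than with R30E differed by less. CERS4, a ceramide synthase, had 0.94, 13.9 and 10.0 normalized counts with HIF-1α against 142, 87.4 and 110 with R30E (log2 -3.79 ± 0.70, edgeR adjusted p = 0.00149). BGN, the proteoglycan biglycan, had 62.3, 84.7 and 92.9 against 552, 506 and 922 (log2 -3.05 ± 0.43, edgeR adjusted p = 3.25e-05). Neither gene's groups overlapped. TMC6 (28.3 to 52.8 against 259 to 347), RAB3IL1 (88.8 to 141 against 464 to 751), the semaphorin SEMA6B (366 to 569 against 1663 to 2546) and HS6ST2, a heparan sulfate sulfotransferase (131 to 182 against 731 to 867), were likewise lower with HIF-1α.

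WT cells are given beside these 12 genes, in comparisons that share the HIF-1α or R30E libraries. PAPPA, a protease of IGF-binding proteins, had 18.9, 19.4 and 14.6 normalized counts with HIF-1α, 111, 133 and 112 with R30E and 69.6 to 106 in WT cells. PAPPA was called lower with HIF-1α than in WT cells (log2 -2.36) and not called with R30E (0.38). For the other genes the log2 difference between R30E and WT cells ran from 1.75 for the channel gene TRPC4 to 6.64 for BGN, and that between HIF-1α and WT cells from -0.50 for TRPC4 to 3.60 for BGN. UQCRFS1P1 and PLAC9P1 are pseudogenes, whose reads may come from related copies, and they lost their calls in 2 and 4 of the 6 fits without 1 library, as did TRPC4 in 2 and TSPAN11 in 3.

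Interferon-stimulated genes, which antiviral signalling induces, were called lower with HIF-1α in 6 of 21 members, against 0.329% of all genes tested. All 21 differences were below 0, with a median of -1.04, and 0 members were called higher. Between HIF-2α and R27E, compared below, the list's median was -0.93, with 2 members called lower, where 1.53% of all genes were. The difference between the HIF-1α and HIF-2α comparisons was called for 0 members. IFI27 had 307, 318 and 113 normalized counts with HIF-1α against 2075, 1019 and 1326 with R30E (log2 -2.59 ± 0.44, edgeR adjusted p = 4.19e-04). MX1, a dynamin-like antiviral GTPase, had 205, 228 and 215 against 1149, 571 and 1046 (log2 -2.09 ± 0.26, edgeR adjusted p = 3.28e-06). In neither gene did the groups overlap, and WT cells had 174 to 263 normalized counts of IFI27 and 167 to 213 of MX1.

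The log2 difference was -2.11 ± 0.37 for OAS1, -1.87 ± 0.34 for OASL and -1.34 ± 0.24 for IFI6. RSAD2 had 68.0 to 92.0 normalized counts with HIF-1α against 288 to 379 with R30E (edgeR adjusted p = 0.00494). The call of RSAD2 was lost in 5 of the 6 fits without 1 library and that of OASL without HIF-1α replicate 2. IFIT1 and IFIT2 were at -0.85 and -0.86 and not called. Against WT cells, 11 of the 21 genes were called higher with R30E (2.04% of all genes were) and 3 with HIF-1α (3.27% of all genes were). The dimerization mutant HIF-1αDM had 337 to 569 normalized counts of MX1 and 366 to 758 of OAS1, both called higher than WT cells (log2 1.31 and 2.10). Proliferation genes and genes of endoplasmic reticulum and amino acid stress had 0 called members of 18 and of 15. MKI67, a proliferation marker, varied from 3314 to 14320 among the R30E libraries and from 6345 to 12660 among the HIF-1α libraries.

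Each line was also set against WT cells. These comparisons share libraries with the one between HIF-1α and R30E, so their values are only given side by side, for named genes and for gene lists. For BNIP3, FAM162A, LOX, P4HA1, PLOD2, GBE1, PFKFB3, COL6A3 and ERO1A, HIF-1α was called higher than WT cells while R30E was within 0.32 of them on the log2 scale. For NDRG1, EGLN3, ENO2 and ZNF395, HIF-1α was called higher and R30E called lower than WT cells. NDRG1, for example, had 26440 to 31860 normalized counts in WT cells, and differed from them by 1.36 with HIF-1α and by -1.91 with R30E. For VEGFA, PDGFB, CA12, STC2, DDIT4, NDUFA4L2 and PTHLH, R30E was called lower than WT cells and HIF-1α was not called against them. STC2 had 19740 to 25280 in WT cells, 21490 to 29330 with HIF-1α and 6339 to 10040 with R30E.

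By list, the other hypoxia-response genes had 8 of 16 members called higher with HIF-1α than in WT cells, where 3.27% of all genes were, and 4 called lower with R30E, where 0.572% were. The median log2 difference from WT cells over this list was 1.14 with HIF-1α and -0.63 with R30E, against -0.03 and -0.04 over all genes tested. Glycolytic enzymes had 5 of 17 called higher with HIF-1α and 1 lower with R30E, with medians of 0.93 and -0.19. Called lower with HIF-1α than in WT cells were 0.517% of all genes, and 0 members of both lists.

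Some genes were higher than in WT cells in both lines. GPRC5C, an orphan G protein-coupled receptor, had 6.61 to 23.9 normalized counts in WT cells, 1262 to 3235 with HIF-1α and 541 to 1001 with R30E. The difference between HIF-1α and R30E, 1.43 ± 0.45, was not called (edgeR adjusted p = 0.0879; called with no filter on low counts and with the replicate block), while both lines were called against WT cells at 7.18 and 5.75. HIF-1αDM cells held 426 to 1707 normalized counts of this gene. FBN1, ANGPTL4, TFR2, CDH11, BGN, LYPD1, RSAD2, IFI6, RAB3IL1 and PLXNA2 were also called higher than WT cells with both HIF-1α and R30E. PLXNA2, a semaphorin receptor, had 654 to 1129 normalized counts with HIF-1α, 1016 to 1587 with R30E and 314 to 473 in WT cells.

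The second batch, in which HIF-1α was compared with WT cells, shares no library with the first. The sources used here do not say whether the same stable line was used, and HIF1A had 13160 normalized counts on average with HIF-1α there and 293 in WT cells. All 333 genes called higher against R30E were tested in it, and 228 of them (68.5%) were called higher with HIF-1α than in WT cells, where 3.9% of all genes tested were. These 228 genes were 20.4% of the 1115 genes called higher in the second batch that were tested in both batches. Another 2 of the 333 were called lower, among them NDUFA4L2 (log2 -1.06, edgeR adjusted p = 0.00294). The median log2 difference of the 333 genes in the second batch was 1.59, against 0.02 over all genes.

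The share was smaller among the genes called lower. Of those 77, 8 (10.4%) were called lower in the second batch, where 0.484% of all genes were. More of them, 16, were called higher, where 3.9% of all genes were. The median log2 difference of the 77 genes was 0.02. These values compare HIF-1α with WT cells and not with R30E, which was not sequenced in the second batch. A gene that differed from WT cells only with R30E would not be called in it, so these shares do not repeat the comparison with R30E. PAPPA was called lower there (-1.30) and BGN, RAB3IL1, MX1, OAS1, OASL, RSAD2, IFI6 and LYPD1 were called higher, from 1.04 for MX1 to 3.04 for RSAD2. Among higher genes, CA9 had 0 and 2048 normalized counts on average in WT and HIF-1α cells of the second batch, BNIP3 differed by 2.54 and ALDOC by 3.68. VEGFA was at 0.99 and EGLN3 at 0.94, not called since their fold changes stayed under 2, and DDIT4 was at 0.04.

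The same question was asked of HIF-2α against its mutant R27E, in libraries of the same batch that are not shared. There 490 genes were higher and 359 lower, 2.09% and 1.53% of those tested. Of the 333 genes higher with HIF-1α than with R30E, 176 (52.9%) were also called higher with HIF-2α than with R27E, which is 35.9% of the 490. Of the 77 lower genes 27 (35.1%) were also lower, or 7.52% of the 359. The median HIF-2α minus R27E log2 difference was 1.51 over the 333 genes and -0.93 over the 77, against -0.09 over all genes.

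The difference between both differences was tested as an interaction. It was larger for HIF-1α in 110 genes (0.47% of those tested) and smaller in 74 (0.316%). A fit to the 12 libraries compared gave 35 larger and 49 smaller, so the balance of directions depends on the libraries that share the fit, and a replicate block gave 273 and 181. Of the 333 higher genes, 40 had a larger difference with HIF-1α and 6 a smaller one, so that for most of them no isoform difference was shown. Of the 77 lower genes 4 were called smaller and 1 larger. Both sets were selected on the HIF-1α minus R30E difference, which is itself a term of the interaction. Selection alone therefore tilts both splits in these directions, and no conclusion is drawn from their balance.

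The difference was larger for HIF-1α in 2 of 17 glycolytic enzymes and in 4 of 10 tested genes of mitochondrial adaptation and mitophagy, against 0.47% of all genes tested. ALDOC had 273, 121 and 141 normalized counts with HIF-2α and 382, 366 and 285 with R27E, so that it differed by 4.81 for HIF-1α and by -0.95 for HIF-2α. The interaction was 5.77 ± 0.43 (edgeR adjusted p = 6.62e-09). BNIP3 had 4167 to 4357 with HIF-2α and 4059 to 4731 with R27E, and its interaction was 2.58 ± 0.22. FAM162A, PFKFB4 and PDK1 were larger for HIF-1α by 2.85, 2.49 and 2.11, and ENO2, KDM3A and BNIP3L by 1.51, 1.13 and 1.12.

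PTPRN was at 1.48 to 3.19 normalized counts with HIF-2α and 0 to 3.85 with R27E, near the floor in both. PPFIA4, a liprin of the presynaptic and adhesion machinery, had 4221, 2463 and 1874 normalized counts with HIF-1α, 18.9, 114 and 102 with R30E, 146 to 308 with HIF-2α and 90.5 to 169 with R27E. Its difference was 5.17 ± 0.57 for HIF-1α and 0.84 for HIF-2α, with an interaction of 4.33 ± 0.72 (edgeR adjusted p = 7.76e-04). SPRY1, an inhibitor of receptor tyrosine kinase signalling, was at 233 to 297 with HIF-1α and at 4.02 to 14.2 in the libraries of R30E, HIF-2α and R27E. TRPA1, an irritant-sensing ion channel, was higher with HIF-1α than R30E by 2.37 ± 0.37 and lower with HIF-2α than R27E (log2 -2.18 ± 0.41). PRXL2A, a peroxiredoxin-like protein, was at 165 to 226 with HIF-1α, 25.6 to 53.2 with R30E and 41.4 to 44.6 with HIF-2α. The isoform differences of PTPRN and PRXL2A were not called in the fit to the 12 libraries alone, nor in 8 and 7 of the 12 fits without 1 library.

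Other genes had a larger difference for HIF-2α. CPE had 15870, 11260 and 11090 normalized counts with HIF-2α against 287, 332 and 406 with R27E, a log2 difference of 5.22 against 1.78 for HIF-1α. PRODH, proline dehydrogenase, differed by 5.57 and 2.48, CDH11, a cadherin, by 5.16 and 2.42, and PTHLH, parathyroid hormone-related protein, by 3.75 and 1.51. These 4 genes were called higher in both comparisons, and their interactions ran from -3.45 for CPE to -2.24 for PTHLH. The kinase gene MAPK13 and LYPD1 were lower with HIF-1α than with R30E (log2 -1.97 and -1.09), while the HIF-2α differences were 1.02, not called, and 1.76. The HIF-1α calls of MAPK13 and of LYPD1 were each lost in 4 of the 6 fits without 1 library. The isoform difference was not called without HIF-1α replicate 2 for MAPK13, and without R27E replicate 1 for CDH11. Of the HIF-2α-linked genes of renal carcinoma, 1 of 10 was called higher for HIF-1α and 8 of 10 for HIF-2α, with medians of 0.76 and 2.67. Over all genes tested, 1.42% and 2.09% were called higher. The list holds HSD3B7 and PLXNA2, which the study presents as HIF-2α responsive with RNA-seq of this series. It was chosen with earlier results of these data known, so its counts are no separate support for an isoform difference.

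**Figure D5:**
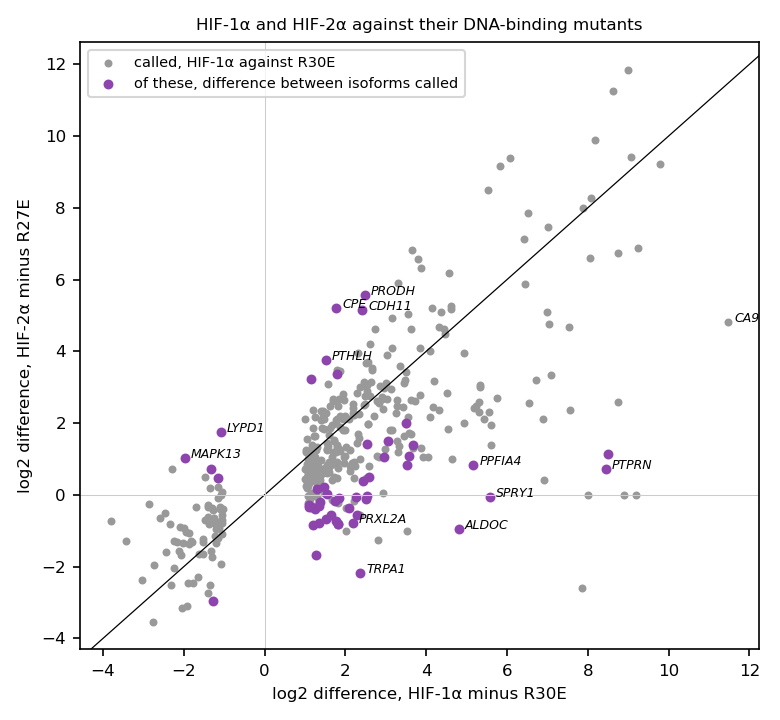
Log2 difference of HIF-2α minus R27E (y axis) against that of HIF-1α minus R30E (x axis) for the 410 genes called in the latter, with genes whose isoform difference was called in purple and the line of equality in black. ALDOC, PTPRN, SPRY1 and PPFIA4 lie below the line and CPE, PRODH, CDH11 and PTHLH above it.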

How the data were processed

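The authors deposited raw read counts per gene for each library. STAR had placed the reads on hg38, with uniquely mapped reads kept, and HTSeq had assigned them to GENCODE genes (union mode, no strand). The submitters' processing notes name STAR 2.7, SAMtools 1.9 and HTSeq 0.11.1. Values of genes with near-identical copies, or with a partner on the other strand, are therefore uncertain. Spike-in RNA was added by the authors in the first batch but is not counted in these values, so changes in total RNA were not measured. Libraries were grouped by their labels.

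The analysis used edgeR 4.0.16, DESeq2 1.42.0 and limma 3.58.1 under R 4.3.3. A gene entered the fit of a batch with a mean TMM-normalized count of 0.5 or more (23410 of 60609 genes in the first batch, 28724 in the second). The 27 libraries of the first batch shared 1 quasi-likelihood fit, as did the 15 of the second. Calls required a 2-fold difference and a two-sided p-value, adjusted by Benjamini-Hochberg over all genes tested, no higher than 0.01. Intervals of ratios of reads are exact 95% intervals and cover counting error only. The pipeline was tested on simulated data.

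Named genes are the HIF subunits, 8 genes for which the study reports RNA-seq results, the 12 called genes with the largest difference per direction (mean normalized count of at least 50, no overlap), called members of the lists with up to 4 others of a list in its order (1 such gene and 1 leukocyte marker are not reported here), and the 6 genes per direction with the largest isoform difference among called genes. The members and lists were chosen with earlier results of these data known. Alternatives were RLE size factors, DESeq2, other filters, a replicate block, fewer libraries and leaving out each library. The number of counted reads per library, 46864256 to 81013481 in the 6 libraries, limits precision for genes near the floor of 3 reads. Promoters are those of RefSeq on GRCh38.p14, matched by symbol for 12661 of the tested genes.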

Additional observations from a re-analysis of the deposited data

Results flagged for a closer look

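The genes given here stood out because their difference between wild-type protein and DNA-binding mutant differed between HIF-1α and HIF-2α. The value after each gene is the log2 difference HIF-1α minus R30E less the log2 difference HIF-2α minus R27E, and each was called by the edgeR test of that difference at the thresholds used throughout. HIF1A counts include transgene reads in the HIF-1α and R30E lines, and EPAS1 counts include them in the HIF-2α and R27E lines. HIF1A differed by 0.27 between HIF-1α and R30E, and by 2.10 between HIF-2α (667 to 1216 normalized counts) and R27E (173 to 276), which carry no HIF1A transgene. EPAS1 differed by 1.15 between HIF-1α and R30E, which carry no EPAS1 transgene, and by -0.34 between HIF-2α and R27E.

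The value was above 0 for PTPRN (7.73), PLA2G4D (7.35), ALDOC (5.77), SPRY1 (5.64), TRPA1 (4.55), PPFIA4 (4.33), PRXL2A (2.96), FAM162A (2.85), BNIP3 (2.58), CP (2.50), PFKFB4 (2.49), NDUFA4L2 (2.12), PDK1 (2.10), ENO2 (1.51), EPAS1 (1.50), KDM3A (1.13) and BNIP3L (1.12). It was below 0 for PLXNA2 (-3.50), CPE (-3.44), HSD3B7 (-3.43), PRODH (-3.08), MAPK13 (-2.99), LYPD1 (-2.85), CDH11 (-2.74), PTHLH (-2.23), FBN1 (-2.06), HIF1A (-1.82), ANGPTL4 (-1.59) and TGFA (-1.40). For PTPRN, PLA2G4D and SPRY1 the HIF-2α and R27E libraries held few reads or none, which limits how closely the size of the difference can be read.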

How the results depend on the processing

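The 333 genes called higher and 77 called lower were 334 and 77 with RLE size factors. DESeq2 gave 424 and 123, no filter on low counts 427 and 116, a mean normalized count of at least 10 gave 324 and 85, and no required fold change 385 and 126. A fit to the 6 libraries alone gave 300 and 56. Leaving out 1 library gave 234 to 321 higher and 38 to 90 lower genes, with the fewest lower genes without HIF-1α replicate 1, where there were 38, 41 without HIF-1α replicate 2, 44 without R30E replicate 1 and 47 without R30E replicate 3. Fewer samples enter these fits.

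The 110 genes with a larger and 74 with a smaller difference for HIF-1α than for HIF-2α were 195 and 170 with DESeq2, 221 and 153 with no filter, and 35 and 49 in a fit to the 12 libraries alone. With 1 library left out they were 73 to 114 and 50 to 105, the former at 73 without R30E replicate 1. In the second batch the alternatives gave 988 to 1166 higher and 120 to 148 lower genes.

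With the replicate number as a block, 447 genes were higher and 138 lower, and the isoform difference was larger in 273 and smaller in 181. Deviations of same-numbered HIF-1α and R30E libraries correlated at -0.10, 0.10 and 0.40, and those of R30E and R27E libraries at 0.01, 0.21 and 0.50. In HIF-2α and R27E (0.15 to 0.45) and in HIF-1α and HIF-2α (0.102 to 0.41) every pair was above 0.1. Pairing required every pair to be above 0.1, which was not met for HIF-1α against R30E nor for all groups of the isoform comparison. Of the named genes, EGLN2 changed sign to -0.59, -0.36 and -0.11 without HIF-1α replicate 3, R30E replicate 1 and R30E replicate 2. With 1 library left out, EGLN2 ranged from -0.590 to 0.792, PFKFB1 from -0.251 (without HIF-1α replicate 1) to 1.52, SLC16A1 from -0.0595 (without HIF-1α replicate 3) to 0.195 and MKI67 from -0.0865 (without R30E replicate 1) to 1.07. The cause was not tested. Genes with few reads with R30E, such as PTPRN and CCDC8, have ratios limited by depth.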
